A study of Mus musculus with 21 samples.

Results

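The 88 genes described here are named as nuclear-encoded subunits of the oxidative phosphorylation complexes, out of 30519 genes in the deposited count table. The rule that picks them uses gene names alone, although the gene family was taken up with earlier results of these data known: mouse protein-coding genes whose symbol is Nduf followed by a, b, c, s or v and a digit, Sdha to Sdhd, Uqcr, Cyc1, Cox4 to Cox8, or Atp5. By this rule complex I has 40 members, complex II has 4, complex III has 9, complex IV has 18 and complex V has 17. Members are assigned to complexes by name alone, so the sets can differ from the true make-up of each complex. The 88 genes were measured by low-input RNA sequencing of 21 libraries of sorted mouse bone marrow cells. Of these, 10 came from cells labelled MEP, usually megakaryocyte-erythroid progenitors, and 11 from cells labelled HSC, usually haematopoietic stem cells. The MEP groups carried Etv6 P216L (3 libraries), Etv6 S211I (2), both changes together, here called the double mutant (3), or WT Etv6 (2). The HSC groups carried P216L (3 libraries), S211I (2), both changes (3) or WT Etv6 (3). Etv6 encodes a transcriptional repressor of the ETS family. Both alleles are amino acid substitutions, so gene counts do not check the genotype label. For the second allele the genotype field gives P211I and the titles give S211I, which is the form used. Zygosity, strain, age, sorting gates and whether libraries came from separate animals are not stated in the labels. The p-values therefore measure the spread between these samples, which may be technical.

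Oxidative phosphorylation is the production of ATP in the inner mitochondrial membrane. Complex I (NADH dehydrogenase) and complex II (succinate dehydrogenase) pass electrons to ubiquinone, complex III (cytochrome bc1) passes them to cytochrome c, complex IV (cytochrome c oxidase) passes them to oxygen, and complex V (ATP synthase) makes ATP from the proton gradient that complexes I, III and IV build. Most subunits are encoded in the nucleus and a few in mitochondrial DNA. Long-term stem cells are known for a low reliance on respiration, and progenitors and erythroid cells for a high one.

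The MEP libraries held 3387389 to 12130358 counts and 10 of the HSC libraries held 151216 to 2250654. The other HSC library, S211I replicate 2, held 13154016 counts and stood apart from its label. Its log2 expression over all genes correlated with the MEP mean at r = 0.985 across genes, which are not independent replicates. The MEP libraries themselves had r of 0.986 to 0.994, and the remaining 10 HSC libraries 0.462 to 0.774. The summed level of 15 stem cell genes was 589 to 902 CPM (counts scaled to a common library total) in MEP, 1138 CPM in that library, 1997 to 3948 CPM in the other HSC mutant libraries and 4146 to 6237 CPM in HSC WT. Slamf1 and Hoxb5, which mark stem cells, were at 0 in all 3 HSC WT libraries. The 17 erythroid and MEP genes summed to 22472 to 26950 CPM in MEP, 22817 CPM in HSC S211I replicate 2, 8832 to 29138 CPM in the other HSC mutant libraries and 3419 to 6663 CPM in HSC WT. The 9 megakaryocyte genes went the other way, with 32.0 to 57.9 CPM in MEP and 416 to 589 CPM in HSC WT. They summed to 81.0 CPM in HSC S211I replicate 2 and 0 to 385 CPM in the other HSC mutant libraries. HSC P216L replicate 1 detected the fewest genes (3988), and its 9 endothelial and stromal genes summed to 16117 CPM. Several results that use these libraries are given with and without HSC S211I replicate 2, but not all that it could move.

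The subunit genes as a group took 2.19 to 2.78% of all counts in MEP and 1.05 to 1.99% in HSC, so that every MEP library stood above every HSC library. In MEP the P216L libraries gave 2.32, 2.24 and 2.78%, the S211I libraries 2.19 and 2.19%, the double mutant libraries 2.37, 2.33 and 2.48%, and the WT libraries 2.40 and 2.24%. In HSC the P216L libraries gave 1.68, 1.65 and 1.60%, the S211I libraries 1.37 and 1.99%, the double mutant libraries 1.55, 1.30 and 1.99%, and the WT libraries 1.11, 1.05 and 1.11%. All 8 HSC mutant libraries therefore stood above all 3 HSC WT libraries, while in MEP the S211I libraries were the lowest of all and the other genotypes overlapped each other. Depth also differed by genotype in HSC. The WT libraries held 151216 to 480419 counts and the P216L libraries 406024 to 850136. The S211I libraries held 442014 and 13154016 counts and the double mutant libraries 369439 to 2250654. The part of depth in the order of the HSC shares was not tested. In bulk samples such as these, fewer cells of a type and less RNA per cell cannot be told apart.

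**Figure D1:**
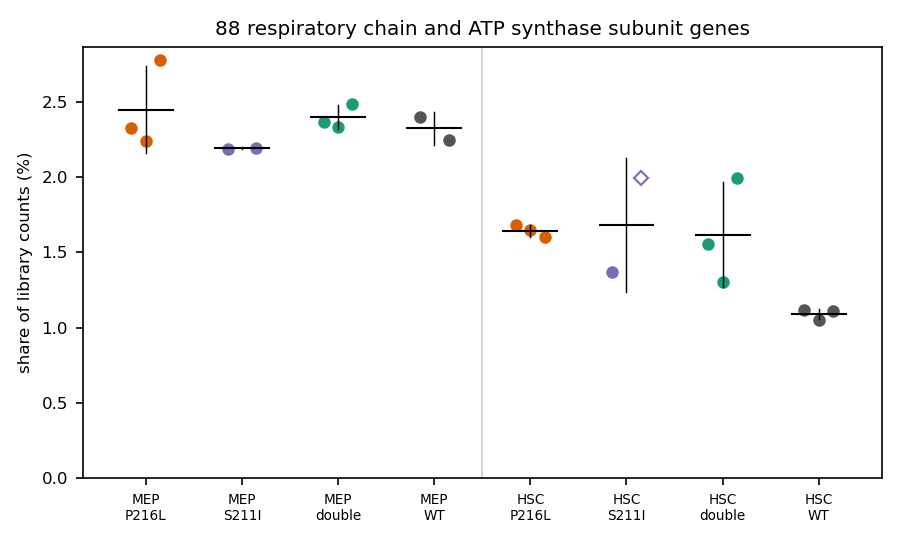
Share of all counts (%) taken by the 88 oxidative phosphorylation subunit genes in each library, by cell type and Etv6 genotype; points are libraries, lines group means, bars ± SD, and the open diamond is HSC S211I replicate 2. The 10 MEP libraries lie between 2.19 and 2.78%, above all HSC libraries, and HSC WT is lowest at 1.05 to 1.11%.

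The summed CPM of the members was 1.49 ± 0.18 (P216L), 1.30 ± 0.34 (S211I), 1.48 ± 0.32 (double mutant) and 2.13 ± 0.12 (WT) times as high in MEP as in HSC (ratio of group means ± propagated SD). Without HSC S211I replicate 2 the S211I ratio was 1.60. These ratios divide by each library's total. With TMM size factors (trimmed mean of M values) the WT ratio was 3.41, and with the median-ratio factors of DESeq2 it was 2.03. The HSC WT sums spread more with TMM factors, at 8022 ± 1569 CPM (mean ± SD), than with library totals, at 10903 ± 359 CPM. Each of the 5 complexes had a higher mean sum in MEP than in HSC in WT, by 1.92 ± 0.21 times for complex I, 1.56 ± 0.84 times for complex II, 2.42 ± 0.29 times for complex III, 2.43 ± 1.00 times for complex IV and 2.33 ± 0.44 times for complex V. For complexes II and IV the HSC WT libraries differed most from each other. Complex II summed to 2031 and 2058 CPM in MEP WT, against 516, 1843 and 1563 CPM in HSC WT, and complex IV to 3059 and 2622 CPM in MEP WT, against 1673, 760 and 1078 CPM in HSC WT.

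**Figure D2:**
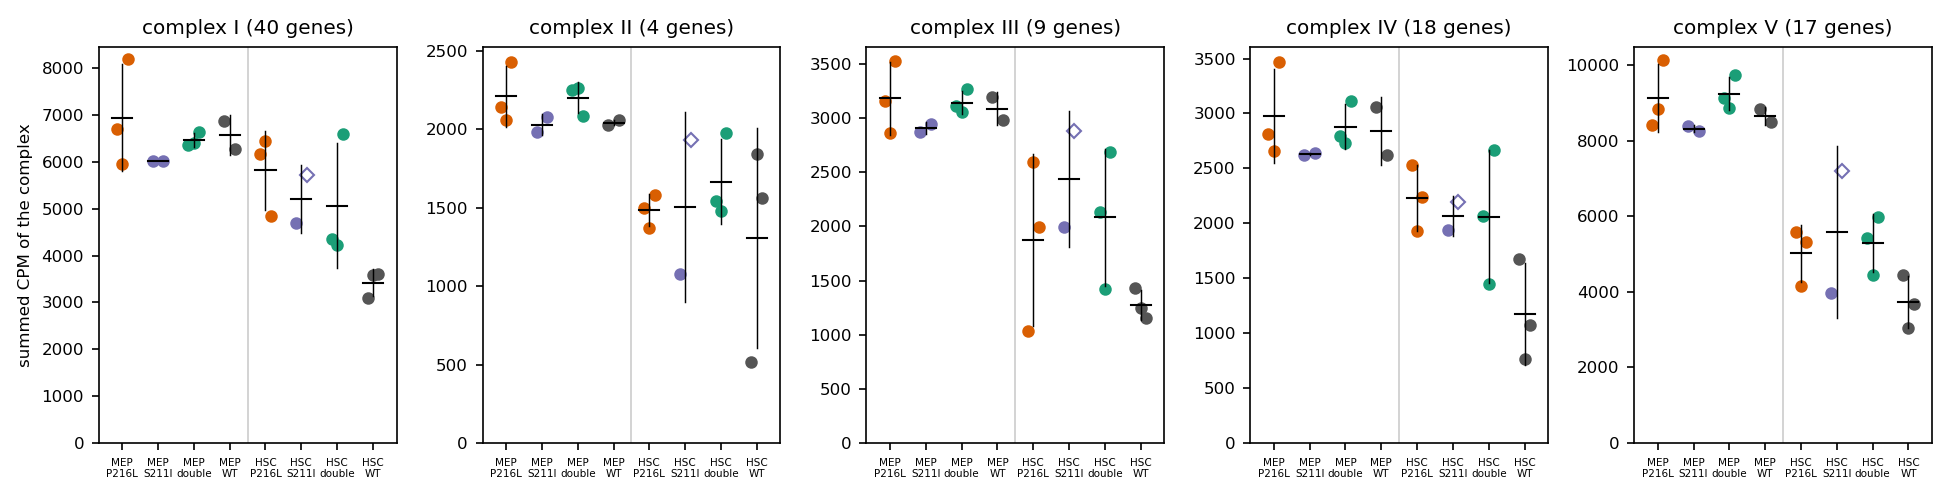
Summed CPM of the members of complexes I to V in each of the 21 libraries, 1 panel per complex; points are libraries, lines group means and bars ± SD. In every panel the MEP libraries form a narrow band, for complex V between 8260 and 10123 CPM, and the HSC libraries spread more widely, with all of them below MEP for complexes II and V, 3 of them within the MEP range for complex I and 1 each for complexes III and IV, and HSC WT lowest for complex I at 3088 to 3603 CPM.

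The make-up of the total by complex was nearly fixed in MEP. Complex V made 36.2 to 39.5% of the members' counts there, complex I 26.6 to 29.5%, complex III 12.7 to 13.6%, complex IV 11.7 to 12.7% and complex II 8.40 to 9.71%. In HSC the ranges were 25.1 to 39.8% for complex V, 27.7 to 39.1% for complex I, 6.13 to 15.8% for complex III, 7.25 to 15.1% for complex IV and 4.63 to 17.6% for complex II. Of the 78 members with a median over 50 CPM in MEP, none of their coefficients of variation in MEP passed 18.8%, and the median was 12.1%, against 59.1% in HSC. In HSC, 36 of these 78 members were at 0 in at least 1 library, which at the lower HSC depths limits what a single gene can show. Within MEP, P216L replicate 3, the shallowest MEP library at 3387389 counts, was the highest library for 58 of the 78 members. By the ratio of the highest to the lowest MEP library, Sdhc, a membrane anchor of complex II, varied least at 249 to 293 CPM, and the complex I accessory subunit Ndufb5 varied most at 107 to 196 CPM. By coefficient of variation the lowest was the complex III core protein Uqcrc2, at 5.67%.

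Among levels per kilobase of transcript, which 85 of the 88 members have, Atp5b, the catalytic beta subunit of ATP synthase, was the highest member, with a median of 1516 CPM per kb in MEP and 711 CPM per kb in HSC. Atp5a1, the alpha subunit, had 764 CPM per kb in MEP and 477 CPM per kb in HSC. Where a subunit has tissue isoforms, the widely expressed form held the counts. Cox4i1 had a median of 580 CPM per kb in MEP and 463 CPM per kb in HSC, against medians of 0 for Cox4i2, its hypoxia-responsive and lung isoform. Cox6a1 had 718 CPM per kb in MEP and 463 CPM per kb in HSC, against 0 for the heart and muscle form Cox6a2. Cox8b and Cox8c, the muscle and testis forms of Cox8a, were at 0 in all 21 libraries, Cox7a1, the heart and muscle form of Cox7a2, did not exceed 0.378 CPM, and the testis form Cox7b2 did not exceed 0.187 CPM. Cox6b2, known as a testis form of Cox6b1, was the exception, with 169 CPM per kb in MEP and 107 CPM per kb in HSC, against 433 CPM per kb in MEP and 263 CPM per kb in HSC for Cox6b1. Among the 3 genes for the c subunit of the ATP synthase rotor, Atp5g3 had 627 CPM per kb in MEP and 189 CPM per kb in HSC. Atp5g1 had 208 CPM per kb in MEP and 85.7 CPM per kb in HSC, and Atp5g2 10.7 CPM per kb in MEP and 0 in HSC. The length used for Atp5g1, 2675 bases, is uncertain, because its principal transcripts span 596 to 4715 bases. Not divided by length, the MEP median was 557 CPM for Atp5g1 and 450 CPM for Atp5g3.

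Several subunit promoters carry the ETS-type core CCGGAAG, the class of sequence that ETS factors such as Etv6 are known to bind. The stretches of 120 bases just upstream of the annotated start are shown for 6 members whose values are described later in the text: 3 without the core that were among the members furthest apart between the cell types, and 3 with it. They are RefSeq sequences of GRCm38.p6, printed 5′ to 3′ on the gene's strand, with the core in capitals on either strand (CCGGAAG or CTTCCGG). The positions are chr10:128083187-128083306 (+) for Atp5b, chr11:96075632-96075751 (-) for Atp5g1, chr9:57521112-57521231 (+) for Cox5a, chr5:115348959-115349078 (-) for Cox6a1, chr9:50603850-50603969 (-) for Sdhd and chr8:83566638-83566757 (+) for Ndufb7.
Atp5b: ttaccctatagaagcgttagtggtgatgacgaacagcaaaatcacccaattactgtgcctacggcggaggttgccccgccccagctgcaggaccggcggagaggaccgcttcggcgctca
Atp5g1: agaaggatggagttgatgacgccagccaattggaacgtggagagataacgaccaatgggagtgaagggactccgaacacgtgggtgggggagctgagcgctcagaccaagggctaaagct
Cox5a: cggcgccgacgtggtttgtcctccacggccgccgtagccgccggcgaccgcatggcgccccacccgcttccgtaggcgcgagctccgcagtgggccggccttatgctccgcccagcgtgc
Cox6a1: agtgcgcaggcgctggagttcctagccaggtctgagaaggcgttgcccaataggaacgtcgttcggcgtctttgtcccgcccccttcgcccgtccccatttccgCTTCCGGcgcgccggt
Sdhd: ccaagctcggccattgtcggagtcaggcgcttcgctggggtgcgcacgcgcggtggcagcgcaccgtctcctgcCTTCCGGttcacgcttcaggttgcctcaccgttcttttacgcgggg
Ndufb7: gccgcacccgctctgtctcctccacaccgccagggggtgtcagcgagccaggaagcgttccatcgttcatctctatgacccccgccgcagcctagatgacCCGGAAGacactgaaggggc

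Searched on both strands from 250 bases before to 50 bases after the start, the core CCGGAAG was in 17 of 75 member promoters (22.7%; 70 of the 88 members had a promoter in the table). It was in 8.86% of all 32851 promoters. Among other genes averaging 50 CPM or more in MEP it was in 24.1% of 4614 promoters, close to the members' share. The member promoters were not filtered by level, and some belong to genes with a median of 0 in MEP, such as Cox7b2 and Cox8b. The palindrome bound by NRF1, a known activator of respiratory chain genes, is GCGCA followed at once by TGCGC. It was in 5 of 75 member promoters (6.67%), against 0.971% of all promoters and 2.38% of the expressed ones. AAGATGGCG, the YY1 core, was in 7 of 75 (9.33%), against 1.40% and 4.34%. These 2 shares rest on few member promoters and were not tested. The GC box GGGCGG of Sp1 was in 38.7%, against 35.7% and 66.4%. It overlapped the ETS-type core in 1 member promoter, and no other pair of these motifs overlapped in a member promoter. The 17 genes with the ETS-type core were Ndufb6, Ndufb7, Ndufs3, Ndufs8, Sdhb, Sdhd, Uqcr11, Uqcrh, Cox6a1, Cox6b1, Cox8a, Atp5e, Atp5h, Atp5j, Atp5k, Atp5l and Atp5md. A match of letters is a description of the sequence and not a binding site.

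The first comparison set MEP against HSC within WT. Among 82 members that could be tested, Atp5b and Atp5g1, both of ATP synthase, were higher in MEP and none was lower (edgeR quasi-likelihood test, Benjamini-Hochberg adjusted p under 0.05 over 12036 genes). In the same comparison 3.62% of all tested genes were higher and 0.474% lower, so 2 of 82 is no larger a share than the background. The direction was shared more widely than the calls: 80 of 82 fold changes were above 0, against 62.9% of all genes, and the members' median log2 fold change was 1.72, against 0.90 over all genes. By complex the median was 1.33 for complex I, 1.29 for complex II, 2.00 for complex III, 1.95 for complex IV and 2.07 for complex V. At an unadjusted p under 0.05, 31 members were higher and 1 was lower, against 20.6 and 7.1% of all genes. For 52 members every MEP WT library stood above every HSC WT library, against 35.8% of all genes. These medians depend on the scaling: they were 0.98 for the members and 0.17 for all genes with median-ratio factors, and 1.03 and 0.23 with library totals, with 76 and 77 members above 0 under these 2 scalings. Single libraries moved them too. With TMM factors they were 2.05 and 1.64 without HSC WT replicate 3, and 1.93 and 0.69 without MEP WT replicate 3.

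Atp5b stood at 2758 and 2856 CPM in MEP WT, against 1475, 536 and 449.6 CPM in HSC WT. The HSC WT libraries differed among themselves by more than the MEP ones, and all 3 lay below both. Its log2 fold change was 2.57 ± 0.44 (SE; edgeR adjusted p = 0.00204). Atp5g1, a gene for the c subunit of the rotor, stood at 598 and 519.6 CPM in MEP WT, against 86.0, 0 and 95.7 CPM in HSC WT, again without overlap. Its log2 fold change was 3.87 ± 0.92 (edgeR adjusted p = 0.0181). When only the 5 WT libraries were fitted, neither gene passed, with edgeR adjusted p-values of 0.111 and 0.337. Atp5b also missed the threshold when no filter on low counts was used, at 0.0813, and Atp5g1 with median-ratio factors, at 0.0509. Atp5g1 further missed the threshold without either MEP WT library, at 0.0663 without replicate 1 and 0.0518 without replicate 3. DESeq2 called 11 members, against 17.9% of all genes, and limma voom 27, against 15.5%. The edgeR count was 1 without MEP WT replicate 1 or 3, 4 without HSC WT replicate 1, 6 without HSC WT replicate 3, and 4 without HSC S211I replicate 2, which shares the estimate of spread. These left-out counts are given without the share of all genes called. Atp5a1, at 1719.9 and 1872 CPM in MEP WT against 1561, 1126 and 1436 CPM in HSC WT, had the smaller log2 fold change of 1.06 ± 0.40 and did not pass (edgeR adjusted p = 0.0932).

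Members of complexes I, III and IV came just short of the threshold, while the smallest adjusted p in complex II was 0.151, for Sdhd. Cox4i1, the regulatory subunit of complex IV, stood at 503 and 437 CPM in MEP WT, against 6.61, 105 and 177 CPM in HSC WT, for a log2 fold change of 2.78 ± 0.83 (edgeR adjusted p = 0.0529). Cox5a, another early-assembling subunit of complex IV, stood at 298 and 266 CPM in MEP WT, against 6.61, 0 and 77.0 CPM in HSC WT, for 3.75 ± 1.19 (adjusted p = 0.0621). Neither gene's groups overlapped, but the HSC WT values rest on few counts: 1, 43 and 85 for Cox4i1 and 1, 0 and 37 for Cox5a. In complex III, the core protein Uqcrc1 stood at 1175 and 1184 CPM in MEP WT, against 384, 643 and 379 CPM in HSC WT, for 2.00 ± 0.60 (adjusted p = 0.0545). In complex I, Ndufv1, which carries the NADH-binding flavin, stood at 471 and 431 CPM in MEP WT, against 6.61, 63.4 and 66.6 CPM in HSC WT, for 3.82 ± 1.21 (adjusted p = 0.0614). Ndufv1 had 1, 26 and 32 counts in the HSC WT libraries. The other large core subunit Ndufs1, which holds iron-sulphur clusters, was closer between the cell types. It stood at 455 and 433 CPM in MEP WT against 258, 383 and 366 CPM in HSC WT. Sdha, the catalytic flavoprotein of complex II, overlapped between the groups, at 806 and 823 CPM in MEP WT against 86.0, 1143 and 685 CPM in HSC WT.

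Other abundant members had no overlap between the WT groups and did not pass. Ndufv2, an iron-sulphur partner of Ndufv1, stood at 346 and 349 CPM in MEP WT, against 13.23, 17.1 and 235 CPM in HSC WT. Uqcrc2 stood at 377 and 374 CPM in MEP WT, against 26.5, 68.2 and 339 CPM in HSC WT. In both genes HSC WT replicate 3 lay closest to the MEP level and the others were far below it. Sdhd stood at 608 and 645 CPM in MEP WT, against 19.8, 322 and 464 CPM in HSC WT. Cox7c, a small subunit of complex IV, stood at 270.4 and 240.4 CPM in MEP WT, against 205, 4.87 and 139 CPM in HSC WT. Sdhb, the iron-sulphur subunit of complex II, was closer between the cell types. Over the libraries of all genotypes its median was 348 CPM in MEP and 236 CPM in HSC. The edgeR adjusted p-values of these 5 genes were 0.104, 0.193, 0.151, 0.175 and 0.339. At the lowest HSC WT value Ndufv2 had 2 counts, Uqcrc2 had 4, Sdhd had 3 and Cox7c had 2.

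**Figure D3:**
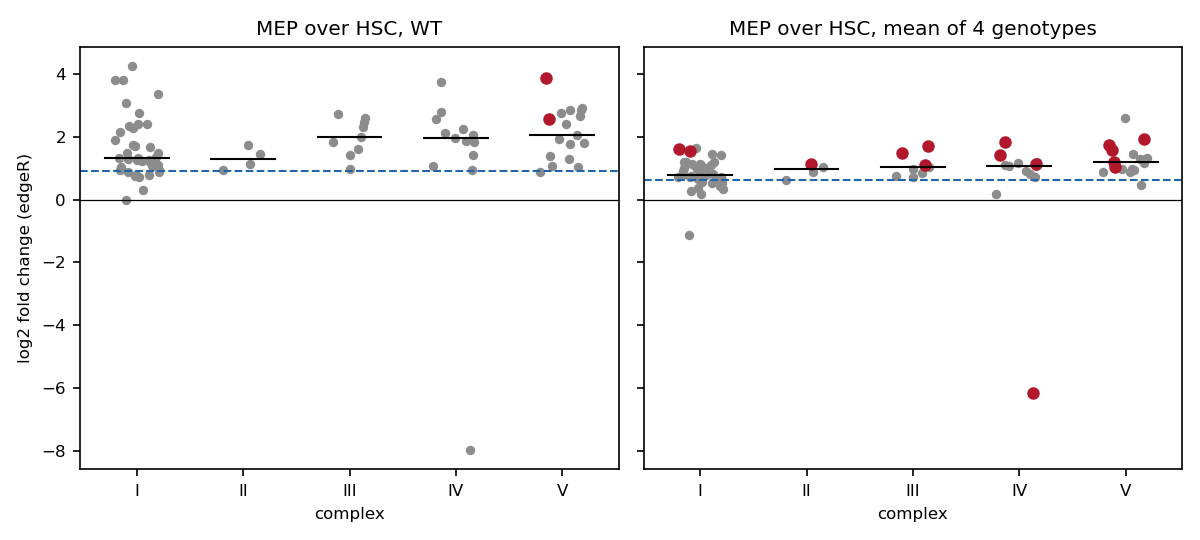
Log2 fold change of each tested member, MEP over HSC, by complex, in WT and as the mean over the 4 genotypes; red points passed an edgeR adjusted p of 0.05, black lines are complex medians and the blue dashed line is the median of all tested genes. In WT 2 members of complex V are red and in the mean over genotypes 14 members above 0 and 1 below 0, with complex V at the highest median in both.

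Averaged over the 4 genotypes, 14 members were higher in MEP than in HSC and 1 was lower (edgeR adjusted p under 0.05), against 12.2 and 5.31% of all tested genes. That is a share of the members not far from the background for higher genes. Of the members, 80 had a fold change above 0, against 67.1% of all genes. Their median log2 fold change was 0.97, against 0.63 over all genes, and 0.65 against 0.30 with library totals. Without HSC S211I replicate 2 the median was 1.33 for the members and 1.20 for all genes, so the 2 lay closer together. The genes that passed came from all 5 complexes: 2 of 39 tested in complex I, 1 of 4 in complex II, 3 of 9 in complex III, 3 of 13 in complex IV and 5 of 17 in complex V. In complex V they were Atp5b (1.57 ± 0.22, adjusted p = 3.98e-05), Atp5a1 (1.03 ± 0.20, 0.00137), Atp5g1 (1.74 ± 0.44, 0.00832), Atp5g3 (1.94 ± 0.54, 0.0154) and Atp5pb, a subunit of the peripheral stalk (1.20 ± 0.37, 0.0257). In complex IV they were Cox5a (1.85 ± 0.57, 0.0262), Cox5b (1.41 ± 0.45, 0.0315) and Cox6a1 (1.13 ± 0.39, 0.0439). In complex III they were Uqcrc1 (1.11 ± 0.30, 0.0124), Cyc1, which holds the haem of cytochrome c1 (1.49 ± 0.46, 0.0269), and the Rieske iron-sulphur protein Uqcrfs1 (1.71 ± 0.59, 0.0452). In complexes I and II they were Ndufc2 (1.56 ± 0.54, 0.0448), Ndufv1 (1.61 ± 0.57, 0.0497) and the membrane anchor Sdhd (1.12 ± 0.39, 0.0455).

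The count of 15 called members moved with single libraries. It was 2 without HSC S211I replicate 1, 31 without HSC S211I replicate 2, 25 without HSC P216L replicate 1, and 6 to 9 without any 1 of the 10 MEP libraries. The share of all genes called without each library is not printed beside the count. It was 15 of 82 with all libraries. It was 6 with library totals, 13 with DESeq2, which called 23.2% of all genes, and 52 with limma voom, which called 41.6%. Over all 10 MEP libraries Atp5b spanned 2707 to 3266 CPM, and over all 11 HSC libraries 449.6 to 2265 CPM, with the highest HSC value in S211I replicate 2 and the next at 1882 CPM in P216L replicate 1. Every MEP library thus lay above every HSC library for this gene. Atp5a1 spanned 1719.9 to 2069 CPM in MEP and 614 to 1674 CPM in HSC, also without overlap. Cyc1 spanned 364 to 484 CPM in MEP and 7.31 to 393 CPM in HSC, where only S211I replicate 2, at 393 CPM, reached the MEP range. Cox5a spanned 245 to 345 CPM in MEP and 0 to 245 CPM in HSC, and there too S211I replicate 2 was the highest HSC library.

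**Figure D4:**
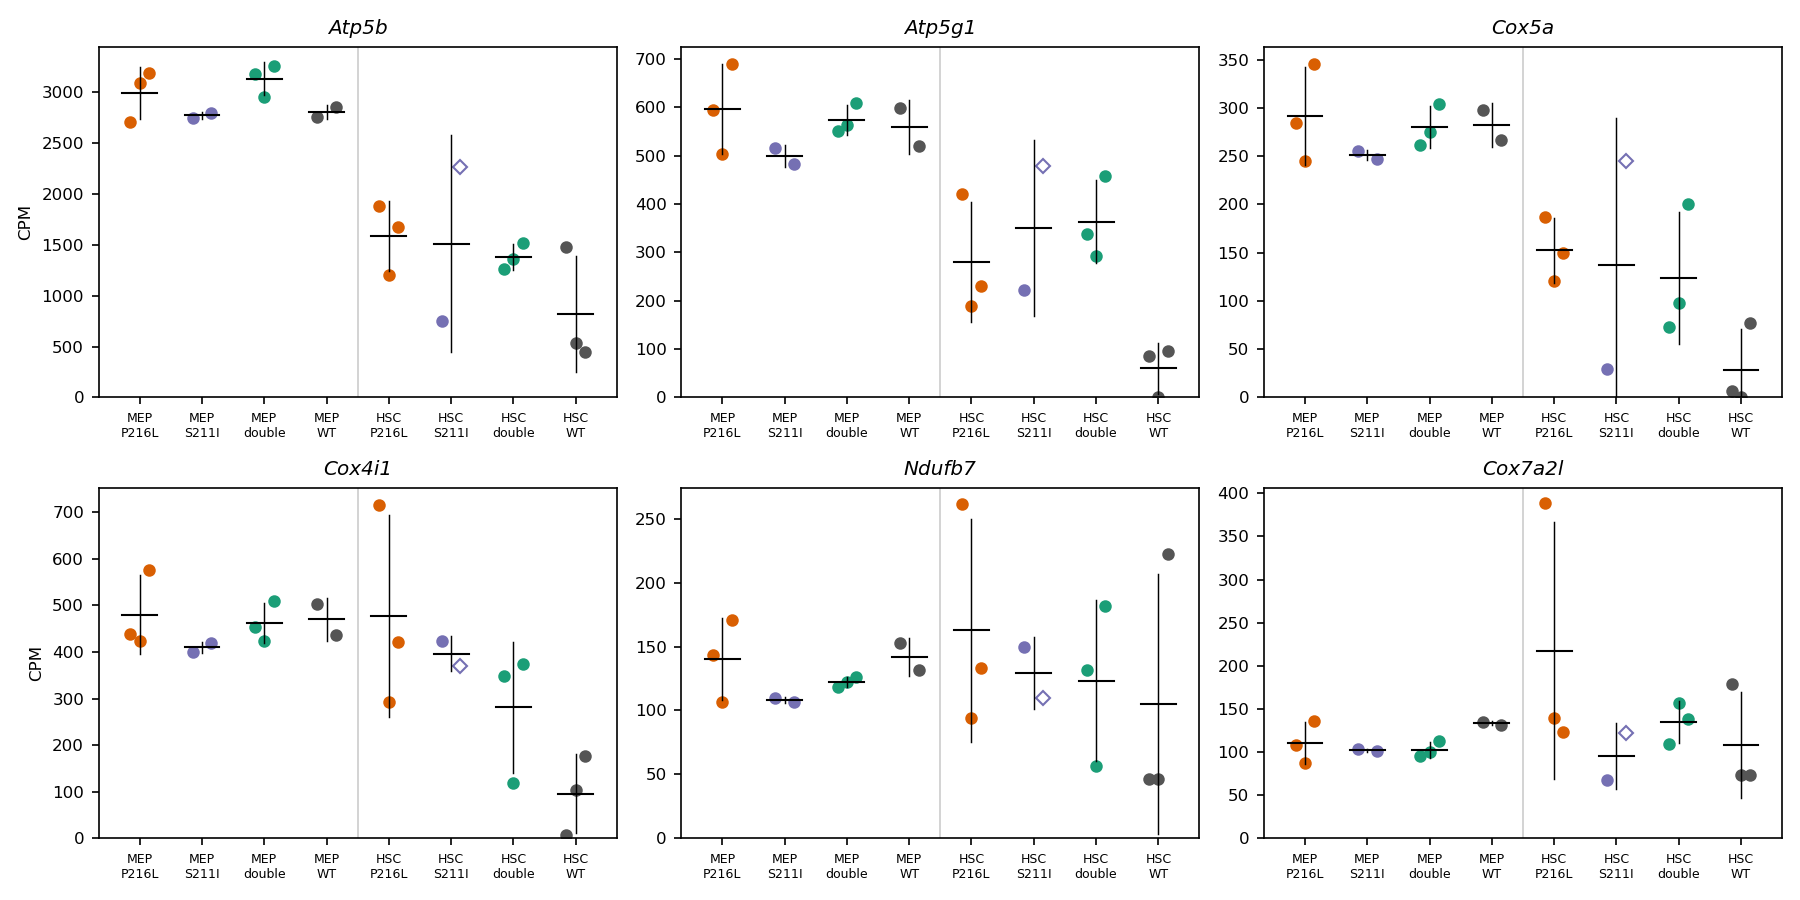
CPM, with the library total as denominator, of Atp5b, Atp5g1, Cox5a, Cox4i1, Ndufb7 and Cox7a2l in each library by cell type and Etv6 genotype; points are libraries, lines group means and bars ± SD. Atp5b lies at 2707 to 3266 CPM in MEP, above all HSC libraries, while Cox7a2l overlaps between the cell types at 87.0 to 136 CPM in MEP and 67.9 to 389 CPM in HSC.

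The 1 member that was lower in MEP was Cox4i2 (log2 fold change -6.16 ± 1.47, edgeR adjusted p = 0.00698), on few counts. It had 1 count in MEP double mutant replicates 1 and 2 and 0 in the other 8 MEP libraries. It had 13 counts in HSC double mutant replicate 1, 10 in HSC S211I replicate 1, 7 in HSC WT replicate 1, 2 in HSC double mutant replicate 2, 1 in HSC P216L replicate 3 and 0 in the other 6 HSC libraries. As CPM of the summed counts it was 53.3 times as high in HSC as in MEP (95% exact interval 13.6 to 458.5), and 143.7 times without HSC S211I replicate 2 (36.8 to 1236); the intervals cover counting error only. Markers of stromal and endothelial cells, in which Cox4i2 is also known, were higher in HSC too: the 9 genes summed to 3.40 to 16.8 CPM in MEP and 25.9 to 16117 CPM in HSC. The sum was 16117 CPM in HSC P216L replicate 1 and 4883 CPM in double mutant replicate 3, both without Cox4i2 counts. In the HSC libraries with most Cox4i2 counts it was 65.4 CPM (double mutant replicate 1), 2204 CPM (S211I replicate 1) and 503 CPM (WT replicate 1). The part of these marker genes in the result was not tested.

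Within each mutant genotype no member passed the test between the cell types. For MEP over HSC, edgeR called 0 of 82 members in P216L, 0 in S211I and 0 in the double mutant, against 0.0748, 0 and 0.241% of all genes called in either direction. At an unadjusted p under 0.05 it found 6, 0 and 2 higher, against 13.1, 0.0499 and 6.89% of all genes, and 0, 1 and 1 lower, against 6.64, 3.26 and 9.4%. DESeq2 called 2, 0 and 1, against 10.7% of all genes in P216L and 7.87% in the double mutant, and limma voom called 0, 0 and 0. The median log2 fold change of the members was 0.81 in P216L, against 0.56 over all genes, 0.55 in S211I, against 0.42, and 0.66 in the double mutant, against 0.09. Without HSC S211I replicate 2 the S211I values were 1.46 and 1.94, and without replicate 1 they were 0.17 and 0.00. Leaving out HSC S211I replicate 2 also moved the P216L values to 1.00 and 0.84 and the double mutant values to 0.92 and 0.28. For P216L they were 0.73 and 0.42 without HSC P216L replicate 1. Without replicate 2 they were 1.12 and 1.10, and without replicate 3 they were 1.21 and 1.35, so the members did not always exceed all genes. The difference between each mutant's cell type fold and that of WT was tested as an interaction. The members' median difference was -0.74 (P216L), -1.22 (S211I) and -1.13 (double mutant), against -0.20, -0.75 and -0.66 over all genes, and 16, 4 and 7 of 82 members were above 0, against 45.6, 37.4 and 36.1% of all genes. None passed in edgeR (0.0997, 0 and 0.0166% of all genes did), with 2, 3 and 2 below 0 at an unadjusted p under 0.05, against 10.1, 8.99 and 12.1% of all genes, and 0 above. DESeq2 called 1, 0 and 1 member, against 7.83% of all genes in P216L and 5.64% in the double mutant, and voom 0, 0 and 0. Without HSC S211I replicate 2 the S211I median was -0.54, against 0.40 over all genes. The P216L median was then -0.54, against -0.04, and the double mutant median -0.93, against -0.53. Under the unadjusted threshold a leading interaction was that of Atp5g1, at -3.24 ± 1.32 (S211I, edgeR adjusted p = 0.408) and -3.01 ± 1.18 (double mutant, 0.255).

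The question whether the Etv6 alleles change these genes within a cell type was put to HSC and MEP apart. In HSC, the summed CPM of the members in mutants over WT was 1.51 ± 0.06 (P216L), 1.54 ± 0.41 (S211I) and 1.48 ± 0.32 (double mutant). The S211I value was 1.25 without replicate 2. With TMM factors the 3 ratios were 1.78, 2.14 and 2.03, and with median-ratio factors 1.43, 1.48 and 1.45. The spread of the P216L ratio depends on the scaling. With TMM factors the sums were 14291 ± 2898 CPM in P216L and 8022 ± 1569 CPM in WT (mean ± SD). With library totals they were 16427 ± 411 CPM in P216L and 10903 ± 359 CPM in WT. Complex I stood at 6170, 6438 and 4853 CPM in the P216L libraries, 4692 and 5729 CPM in S211I, 4355, 4233 and 6606 CPM with both changes, and 3088, 3583 and 3603 CPM in WT, so that no mutant library reached down to WT. Complex IV stood at 2532, 1927 and 2238 CPM in the P216L libraries, 1937 and 2194 CPM in S211I, 2064, 1451 and 2666 CPM with both changes, and 1673, 760 and 1078 CPM in WT, with only double mutant replicate 2 below a WT library. Complexes II, III and V overlapped between the mutants and WT in at least 1 library. The 3 mutant comparisons share the same WT libraries.

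No single member passed the test in HSC. edgeR called 0 of 80 members in P216L, S211I and the double mutant, against 0.106, 0.0845 and 0.0739% of all 9471 tested genes. At an unadjusted p under 0.05 it found 2, 2 and 3 members higher, against 7.78, 7.41 and 8.27% of all genes, and 0 lower. DESeq2 called 0 in each, and limma voom called 3 in S211I, against 6.58% of all genes, and 0 in the others. The members' median log2 fold change was 0.63 for P216L, against 0.13 over all genes, 0.91 for S211I, against 0.43, and 0.96 for the double mutant, against 0.44. Without replicate 2 the S211I medians were 0.54 and -0.03, and without replicate 1 they were 1.49 and 0.93. Without HSC WT replicate 3 the P216L medians were 0.99 and 0.54. Members above 0 numbered 63, 73 and 71 of 80, against 52.9, 58.8 and 60.2% of all genes. For 16, 17 and 15 members every mutant library stood above every WT library, against 4.87, 16.6 and 11.3% of all genes. These folds come from a fit whose biological coefficient of variation was 1.60, where that of MEP was 0.174.

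Atp5b had 1882, 1202 and 1679.7 CPM in the HSC P216L libraries, 756 and 2265 CPM in S211I, 1266, 1362 and 1522 CPM with both changes, and 1475, 536 and 449.6 CPM in WT. HSC WT replicate 1 lay within the range of each mutant, and the other WT libraries lay below all mutant ones. Its log2 fold change was 1.18 ± 0.51 in P216L (edgeR adjusted p = 0.372), 1.36 ± 0.55 in S211I (0.599), where it was 0.08 without replicate 2, and 1.13 ± 0.51 in the double mutant (0.468). Atp5g1 had 421, 189 and 229 CPM in the HSC P216L libraries, 222 and 478 CPM in S211I, 339, 292 and 458 CPM with both changes, and 86.0, 0 and 95.7 CPM in WT. All 8 mutant libraries stood above the 3 WT libraries, and the log2 fold change was 2.88 ± 1.33 in S211I (edgeR adjusted p = 0.599) and 2.86 ± 1.26 in the double mutant (0.468). Cox4i1 had 717, 292 and 422 CPM in the P216L libraries, 423 and 370.3 CPM in S211I, 349, 119 and 375 CPM with both changes, and 6.61, 105 and 177 CPM in WT. Its groups did not overlap for the single mutants, and in P216L the log2 fold change was 2.26 ± 1.12 (edgeR adjusted p = 0.378).

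Not all members had this order in HSC. Atp5a1 had 1499.9, 829.7 and 1178 CPM in the P216L libraries, 1249 and 1674 CPM in S211I, 916, 614 and 965 CPM with both changes, and 1561, 1126 and 1436 CPM in WT, and all double mutant libraries lay below WT. Sdha had 884, 599 and 827 CPM in the P216L libraries, 434 and 795 CPM in S211I, 763, 834 and 923 CPM with both changes, and 86.0, 1143 and 685 CPM in WT, whose libraries included both the lowest and the highest value. Marker genes moved with the genotypes in HSC beside these values. The erythroid and MEP genes summed to 8832 to 29138 CPM in the mutants and 3419 to 6663 CPM in WT. The 9 S phase genes summed to 1196 to 8576 CPM in the mutants and 746 to 1798 CPM in WT, and the stem cell genes to 1138 to 3948 CPM in the mutants and 4146 to 6237 CPM in WT. Their part in the higher share of subunit counts in HSC mutants was not tested.

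**Figure D5:**
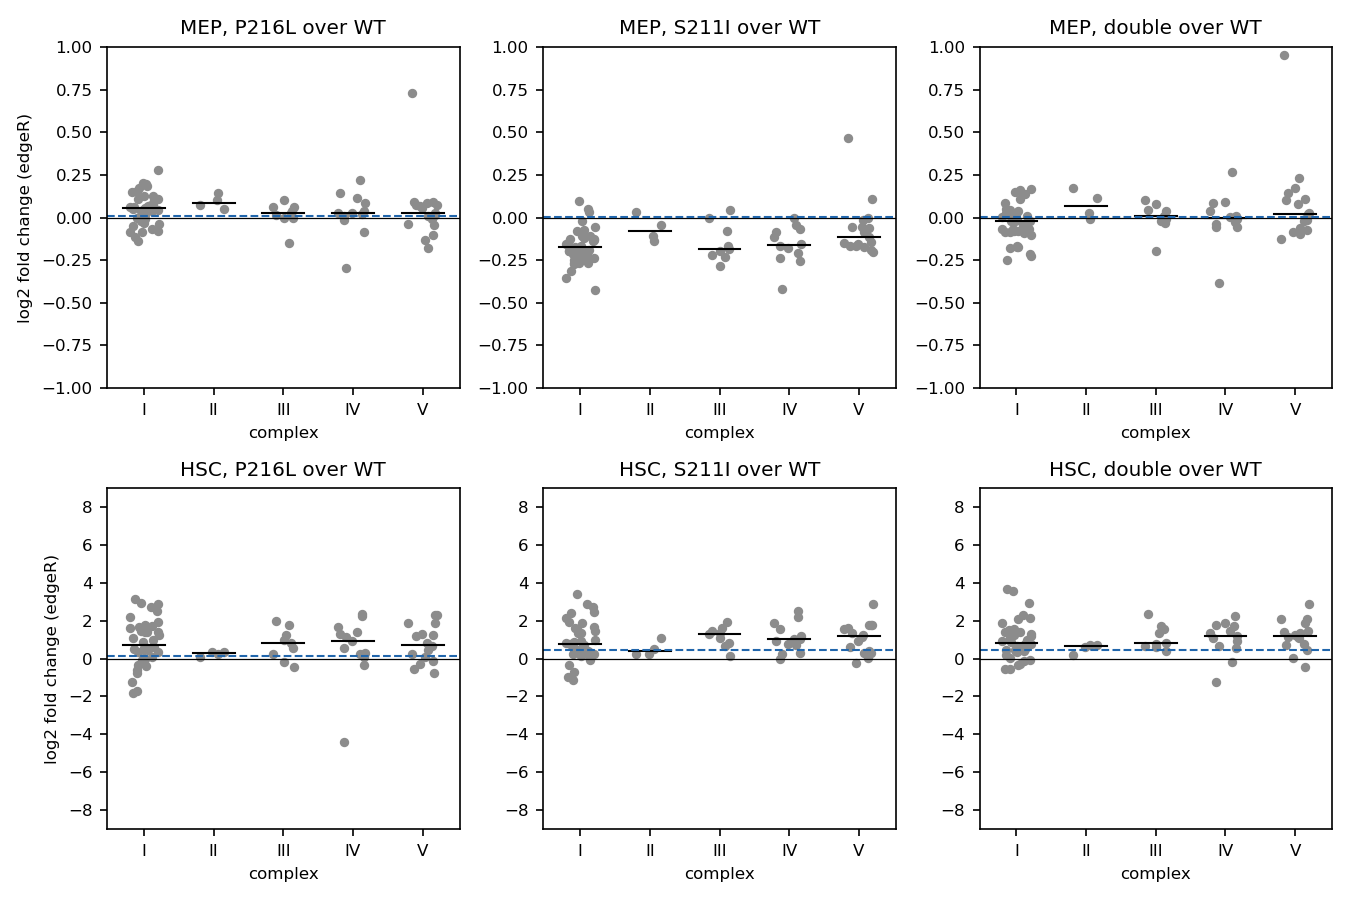
Log2 fold change of each tested member against WT of the same cell type, by complex, for P216L, S211I and the double mutant, with MEP in the upper and HSC in the lower row on different vertical scales; black lines are complex medians and the blue dashed line the median of all tested genes. No member passed an edgeR adjusted p of 0.05; the MEP members lie close to 0, with medians of 0.04, -0.16 and -0.01, and Ndufb4b (5.48 to 6.96) lies outside the MEP axes.

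In MEP the members were nearly level across genotypes. Their summed CPM in mutants over WT was 1.05 ± 0.13 (P216L), 0.944 ± 0.045 (S211I) and 1.03 ± 0.06 (double mutant). edgeR called 0 of 81 members in each, against 0, 0 and 0.102% of all 10773 genes, and DESeq2 and limma voom also called 0 in each. At an unadjusted p under 0.05, edgeR found 1, 0 and 0 members higher, against 3.09, 2.85 and 2.61% of all genes, and 0, 2 and 1 lower, against 2.03, 1.89 and 2.64%. The median log2 fold change was 0.04, -0.16 and -0.01, against 0.01, 0.00 and 0.01 over all genes. Members above 0 numbered 57, 8 and 38 of 81, against 51.3, 50.5 and 51% of all genes. Single libraries moved these medians. Without MEP WT replicate 1 they were 0.14, -0.07 and 0.10, and without MEP WT replicate 3 they were -0.06, -0.27 and -0.13. Without P216L replicate 1, 2 or 3 the P216L median was 0.08, 0.11 or -0.08, and without double mutant replicate 1, 2 or 3 the double mutant median was 0.02, 0.02 or -0.06. In S211I, with all libraries, the complex medians were -0.18 for complex I, -0.08 for complex II, -0.19 for complex III, -0.16 for complex IV and -0.11 for complex V. The S211I median over all members was -0.12 with library totals and -0.15 with median-ratio factors. For 29 members both S211I libraries stood below both WT libraries, against 15% of all genes, and for 0 members above, against 21.8%. The summed CPM of all members was 21874 and 21941 in S211I and 24002 and 22432 in WT, a shift of the size of the gap between the WT libraries.

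Members with the smallest p-values in MEP had small differences. Ndufb7, an accessory subunit of complex I whose printed promoter holds the ETS-type core, had 143, 107 and 171 CPM in the P216L libraries, 109.8 and 107 CPM in S211I, 118, 122 and 126 CPM with both changes, and 152 and 131 CPM in WT. S211I and the double mutant lay below WT, and the log2 fold change in S211I was -0.43 ± 0.18 (edgeR adjusted p = 0.939). Cox7a2l, a factor of the supercomplexes that join complexes III and IV, had 108, 87.0 and 136 CPM in the P216L libraries, 104 and 101 CPM in S211I, 94.9, 101 and 113 CPM with both changes, and 135 and 132 CPM in WT. Of the mutant libraries 1, P216L replicate 3, reached the WT values. Its log2 fold change was -0.30 ± 0.16 in P216L, -0.42 ± 0.18 in S211I and -0.39 ± 0.16 in the double mutant (edgeR adjusted p = 0.984, 0.939 and 0.94), and after thinning all libraries to 151215 counts it was 0.34 in P216L and 0.46 in the double mutant. Cox8a had 205, 206 and 226 CPM in the double mutant and 183 and 166 CPM in WT (0.27 ± 0.13, adjusted p = 0.949). Atp5b stood at 2707, 3098 and 3190.1 CPM in the P216L libraries, 2753 and 2797 CPM in S211I, 3182, 2952 and 3266 CPM with both changes, and 2758 and 2856 CPM in WT. The double mutant libraries lay above both WT libraries, and the other mutants overlapped WT.

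Members with and without the ETS-type core in their promoter differed little in MEP. The median log2 fold change against WT was 0.04 for the 17 with the core and 0.05 for the 50 without it under P216L. It was -0.14 with the core and -0.17 without it under S211I, and -0.02 with it and -0.00 without it when both changes were present. In HSC the medians were 0.57 with the core and 0.95 without it under P216L, 0.74 and 1.02 under S211I, and 0.84 and 0.94 under both changes. These are descriptions with no test.

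The members not tested were few. Ndufa4l2, Cox6a2, Cox7a1, Cox7b2, Cox8b and Cox8c did not pass the filter on low counts in any fit, Ndufb4b and Atp5g2 did not in HSC, and Cox4i2 did not in MEP. Ndufb4b, at 0 in both MEP WT libraries and at most 6.63 CPM in MEP, is a near copy of Ndufb4 and Ndufb4c, so reads could be split among them and their values are uncertain. The same holds for Cox7c, which has a transcribed pseudogene that averaged 19.9 CPM.

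Genes that serve the complexes without being subunits were read beside them, with the same background: in WT 3.62% of all genes were higher in MEP than in HSC and 0.474% lower, with a median log2 fold change of 0.90. Of 45 assembly factors, 1 was higher in WT and 0 were lower, with a median of 1.10. Of 17 genes for the electron carriers ubiquinone and cytochrome c, 0 were higher and 0 lower by edgeR (median 1.12), with 3 higher and 1 lower at an unadjusted p under 0.05. Of 21 genes of the TCA cycle and pyruvate dehydrogenase, 3 were higher and 0 lower (median 1.36): Idh3a (2.82), a subunit of isocitrate dehydrogenase, Mdh2 (2.48), malate dehydrogenase, and Pdha1, the E1 alpha subunit of pyruvate dehydrogenase. Pdha1 stood at 358 and 360.2 CPM in MEP WT, against 0, 19.5 and 2.08 CPM in HSC WT. Of 14 regulators of mitochondrial genes, 1 was higher, the growth regulator Myc (2.62), and 0 were lower (median 2.75).

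Averaged over the 4 genotypes, 4 assembly factors, 1 carrier gene, 5 TCA cycle genes and 5 regulators were higher and 1 carrier gene, Coq8a, was lower, against 12.2 and 5.31% of all genes. The list medians were 0.87, 1.02, 1.08 and 1.26, against 0.63 over all genes. The regulators were Tfam, which packages mitochondrial DNA, Myc (1.24), Polrmt, the mitochondrial RNA polymerase, Tfb1m and Esrra. Esrra and Tfb1m were at 0 in all HSC WT libraries, and Esrra, Tfb1m and Polrmt in all HSC P216L libraries, so no fold is given for them. In MEP, Esrra lay between 3.93 and 13.5 CPM and Polrmt between 54.3 and 80.8 CPM. In the 6 comparisons of a mutant with WT, edgeR called 0 genes of any of these 4 lists, against at most 0.106% of all genes.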

How the data were processed

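RNA was extracted from sorted cells with NucleoSpin RNA XS and libraries were prepared with SMART-Seq v4 Ultra Low Input, per the labels' protocols. The authors deposited 1 table of estimated counts, with Entrez IDs as gene names. The submitters' processing notes name FastQC, Salmon and GRCm39, with versions not given in the sources used here. Values that were not whole, 6.09 to 33.1% of the nonzero ones per library, were rounded. Of 30519 genes, 30211 took a symbol from a GRCm38.p6 annotation; the other 308 held 0.0442% of the counts. In the table, 0 per-sample columns were left unused. Over 18 pairs of libraries of a group, the chi-square per degree of freedom between counts was 4.63 to 88.2, so none was a copy of another in its group. Libraries of different groups, such as HSC S211I replicate 2 and MEP, were not compared in this way.

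Tests used edgeR 4.0.16 (limma 3.58.1, R 4.3.3) with TMM factors, filterByExpr (minimum count 10, minimum total 15), robust quasi-likelihood fits and Benjamini-Hochberg adjustment at 0.05. All 21 libraries were fitted together for MEP against HSC and the interactions, so a gene has the same spread estimate in MEP and HSC. HSC and MEP were fitted apart for mutants against WT. Their biological coefficients of variation were 1.06, 1.60 and 0.174. Alternatives were DESeq2 1.42.0, limma voom with quality weights, median-ratio (RLE) factors, library totals, no filter, only the groups compared, a replicate block, thinning to 151215 counts and leaving out libraries. Printed CPM use the library total, with no size factor, and carry counting error that is largest in the shallow HSC libraries. Transcript lengths are medians of principal transcripts in GENCODE vM21 (85 of 88 members). Promoters are RefSeq, GRCm38.p6, used for sequence only.

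The members and lists were chosen with earlier results of these data known. The genes named were drawn from the 3 most abundant members of each complex, a fixed set of core subunits and isoform pairs, members past the threshold, those with the smallest p-values, the widest and narrowest in MEP, and those at 0 throughout. A result for 1 member that this rule would name is not reported here.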

Additional observations from a re-analysis of the deposited data

How the results depend on the processing

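The calls between cell types depend on the processing. In WT, where 2 members were called, DESeq2 called 11, voom 27, thinned libraries 4, median-ratio factors 1, a fit of the WT libraries alone 0, and leaving out 1 library 1 to 6. Averaged over genotypes, where 15 were called, thinning gave 8, and library totals, median-ratio factors and no filter gave 6 each; voom called 52, and leaving out 1 library gave 2 to 31. Without HSC S211I replicate 2 and HSC P216L replicate 1, an alternative chosen after seeing the data, as was library totals, the counts were 25 in WT, 38 averaged over genotypes, 1 in S211I and 2 in the double mutant. Without these 2 libraries the members' median log2 fold change in WT was 1.84, against 1.11 over all genes. Averaged over genotypes it was 1.21, against 1.14. For alternatives other than DESeq2 and voom, the share of all genes called is not printed. Their counts therefore have no background and show nothing particular to the members. Against 0 called, the fit of the groups compared called 3 in P216L and 2 in the double mutant, DESeq2 called 2 in P216L, 1 in the double mutant, and 1 for the interactions of P216L and of the double mutant, and voom called 3 for S211I against WT in HSC. Leaving out 1 library gave 0 to 1 in P216L, 0 to 2 in the double mutant and 0 to 1 for the S211I and double mutant interactions. For all other comparisons the count stayed at 0 under every alternative run.

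The adjusted p of Atp5b in WT ran from 8.31e-05 to 0.111 and that of Atp5g1 from 0.0019 to 0.337. Of 1059 fold changes of named members under alternatives, 18 changed sign, and the cause was not tested. Atp5g2 between cell types in the double mutant (-1.44) was 2.22 with voom and -1.99 to 4.23 without 1 library. The Cox4i2 interaction of the double mutant (3.13) was -4.86 to 4.35 without 1 library. Cox7a2l in MEP was 0.34 in P216L and 0.46 in the double mutant after thinning; between cell types in P216L (-0.42) it was 0.082 without the 2 doubted libraries and -0.60 to 0.021 without 1. Ndufa13 between cell types in S211I (-0.35) was -0.43 to 0.056. Ndufb4b between cell types was -9.09 to 6.01 in P216L, -6.51 to 4.90 in S211I (1.75 with voom) and -2.66 to 1.25 averaged. Ndufb4c was -0.034 to 9.35 for the S211I interaction and -7.47 to 0.24 for S211I against WT in HSC.

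Deviations of libraries with the same replicate number had a median r of -0.0048 over 64 pairs of libraries, 2 above 0.1. With different numbers the median r was 0.0017 over 128 pairs. In groups of 2 or 3 libraries, with shallow HSC libraries among them, this check cannot exclude a pairing. With a replicate block 3 members were called in WT and 14 averaged over genotypes, Atp5g2 in the double mutant was 1.70 and Ndufb4b in P216L 0.070. Depth limits HSC most: at 151216 counts a gene of 6.61 CPM is 1 count.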
